A study of Mus musculus with 3 samples.

Results

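Chil3, Retnla, Ear2, Lyz1 and Lyz2 encode small proteins that myeloid cells release. They were followed here in cells isolated as monocytes and macrophages out of wounded skin 3, 6 and 10 days after injury, in male mice of the strain C57BL6/J. All mice carried the same genotype, an inbred laboratory strain with no engineered allele named in the labels, no treatment other than the wound is named, and the sources used here do not state their age. Each day had 1 droplet library made from the pooled cells of 2 mice, so there are no replicates and no test between days was possible. The 5 genes, of 31053 in the count table, were chosen by name, for their UMIs (unique molecular identifiers, the count of captured mRNA molecules) on the 3 days and for how few cells held the UMIs of Retnla, Ear2 and Lyz1. The differences between days and the concentration in few cells are therefore given as descriptions of these libraries.

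Of 1472, 1196 and 2209 barcodes, 900, 598 and 1362 had at least 200 detected genes and under 10% of their UMIs from mitochondrial genes and were kept. They held 9757866, 7263942 and 12115163 UMIs, with medians per cell of 10629, 11778.5 and 8285. No barcode of day 3 recurred in another library, and days 6 and 10 shared 2 barcodes, counted over all barcodes. By their markers, 761, 437 and 1131 kept cells were monocyte/macrophage-like and 133, 135 and 192 were dendritic cell-like, although the label names monocytes and macrophages alone. Levels are UMIs per 1000000 UMIs (CPM) with exact Poisson 95% intervals, and all intervals cover counting error only.

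Chil3 encodes Ym1, a chitinase-like lectin, and Retnla encodes RELM-alpha, a resistin-like protein. Both are textbook products of mouse macrophages exposed to interleukin-4 or interleukin-13, which act through the receptor chain Il4ra and the transcription factor Stat6. Ear2 is a secreted ribonuclease of the eosinophil-associated family. Lyz1 and Lyz2 are neighbouring copies of the lysozyme gene, whose product cleaves bacterial cell walls. Lyz2 is the lysozyme of myeloid cells and Lyz1 is best known from the Paneth cells of the gut.

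In GRCm38, Chil3 lies on the minus strand at chr3:106147554-106167564 and Retnla on the plus strand at chr16:48842551-48844461. Ear2 lies on the plus strand at chr14:44102654-44103534, where it overlaps the antisense lincRNA Gm49101, and the sources used here do not say whether the counting used strand. Lyz1 (chr10:117287797-117292868) and Lyz2 (chr10:117277331-117282321) both lie on the minus strand, 5475 bases apart. The last 500 bases of the Lyz1 and Lyz2 transcripts were 95.4% identical, and 3.65% of the 90-base stretches there were exact matches of the other gene. For Ear2, 9.73% of such stretches also occurred in Ear1, Ear10 or Ear pseudogenes, for Chil3 9.002% occurred in Chil4, and for Retnla none occurred elsewhere.

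Promoter sequence is shown for 3 genes, Retnla because its UMIs were the most concentrated, and Lyz1 and Lyz2 because 2739 cells held UMIs of Lyz2 and 231 held UMIs of its neighbouring copy. Each is the stretch from 250 to 61 bases before the RefSeq start (GRCm38.p6). In Retnla (chr16:48842359-48842548, plus strand) capitals mark a match to a STAT6-type motif, TTC and GAA with any 4 bases between them. In Lyz1 (chr10:117292929-117293118) and Lyz2 (chr10:117282333-117282522), both minus strand, capitals mark bases that differ from or have no partner in the other gene, and 73.4% of the aligned stretch was identical.
Retnla: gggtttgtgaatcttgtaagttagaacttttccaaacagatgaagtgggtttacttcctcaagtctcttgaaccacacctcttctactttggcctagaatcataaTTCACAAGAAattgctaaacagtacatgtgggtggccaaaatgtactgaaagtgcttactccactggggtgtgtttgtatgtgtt
Lyz1: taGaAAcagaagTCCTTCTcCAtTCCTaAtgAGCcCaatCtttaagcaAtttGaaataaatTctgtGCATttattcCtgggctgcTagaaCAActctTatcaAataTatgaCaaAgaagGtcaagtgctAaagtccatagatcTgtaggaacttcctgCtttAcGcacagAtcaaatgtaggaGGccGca
Lyz2: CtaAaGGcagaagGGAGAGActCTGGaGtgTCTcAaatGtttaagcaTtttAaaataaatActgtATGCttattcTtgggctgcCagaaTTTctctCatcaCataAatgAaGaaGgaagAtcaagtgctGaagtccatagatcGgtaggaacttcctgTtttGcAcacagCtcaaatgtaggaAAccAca

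The STAT6-type motif, searched on both strands, occurred in the Retnla stretch 145 bases before the start, in none of the other 4 genes, and in 4.54% of 32851 promoter stretches of the same length. TTGCNNAA, the letters of a C/EBP-type motif, occurred in the Retnla, Ear2 and Lyz1 stretches and in 7.77% of all. GAGGAA, part of a PU.1-type motif, occurred in the Retnla stretch and in 18.0% of all. None of the matches overlapped another. These are matches of letters in 1 window, not sites shown to be bound.

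Chil3 was an early gene in these wounds. Its level was 1513 CPM (1489 to 1538) on day 3, 103 CPM (96.1 to 111) on day 6 and 166 CPM (159 to 173) on day 10. Day 3 was far above both later days. The level was 14.6-fold lower on day 6 than on day 3 (95% interval 13.6 to 15.8) and 9.11-fold lower on day 10 than on day 3 (8.70 to 9.55). From day 6 to day 10 it was 1.61-fold higher (1.48 to 1.75).

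Retnla was lowest on day 3 and highest on day 10. It stood at 35.3 CPM (31.6 to 39.2) on day 3, 189 CPM (180 to 200) on day 6 and 472 CPM (460 to 485) on day 10. Each library was above the one before it, by 5.37-fold (4.77 to 6.06) on day 6 over day 3 and by 2.49-fold (2.35 to 2.65) on day 10 over day 6. Day 10 was 13.4-fold above day 3 (12.02 to 14.98).

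Ear2 was highest on day 6. Its levels were 19.1 CPM (16.4 to 22.0), 92.6 CPM (85.8 to 99.9) and 44.5 CPM (40.8 to 48.4) on days 3, 6 and 10. Day 6 was 4.86-fold above day 3 (4.13 to 5.75) and day 10 was 2.08-fold below day 6 (1.86 to 2.34). Day 10 remained 2.33-fold above day 3 (1.97 to 2.77).

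Lyz1 was low on day 3 and similar on the later days, with 18.4 CPM (15.9 to 21.3), 64.0 CPM (58.3 to 70.1) and 58.4 CPM (54.2 to 62.9). It was 3.47-fold higher on day 6 (2.92 to 4.15) and 3.17-fold higher on day 10 (2.69 to 3.75) than on day 3. Between day 6 and day 10 the ratio was 0.913, with an interval (0.811 to 1.03) that includes no difference.

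Lyz2 was abundant on every day, at 13328 CPM (13256 to 13400), 6195 CPM (6138 to 6253) and 10176 CPM (10119 to 10233). The day 6 library was the low one, 2.15-fold below day 3 (2.13 to 2.17), and day 10 was 1.64-fold above day 6 (1.62 to 1.66). Day 10 was 1.31-fold below day 3 (1.30 to 1.32). So on day 6 the neighbouring lysozyme genes stood on opposite sides of their day 3 levels.

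Counted at 1.5-fold, 3 of the 5 genes were higher (Retnla, Ear2, Lyz1) and 1 lower (Chil3) on day 10 than on day 3, where 24.6% of 11289 measured genes were higher and 8.94% lower. For day 6 against day 3 the counts were 3 higher and 2 lower (Chil3 and Lyz2), with 28.6% and 7.79% of all measured genes. For day 10 against day 6 they were 3 higher (Chil3, Retnla, Lyz2) and 1 lower (Ear2), with 5.87% and 10.3%. The median gene differed by 0.17, 0.24 and -0.07 on the log2 scale in these comparisons, against 1.22, 1.795 and 0.68 for the 5 genes. Higher genes made up 73.4%, 78.6% and 36.3% of the calls over all genes, and 59.8%, 57.8% and 48.7% with TMM factors, which shift every log2 ratio by -0.15, -0.23 and 0.09. Since the genes were picked from these contrasts, nothing is read from the counts.

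**Figure D1:**
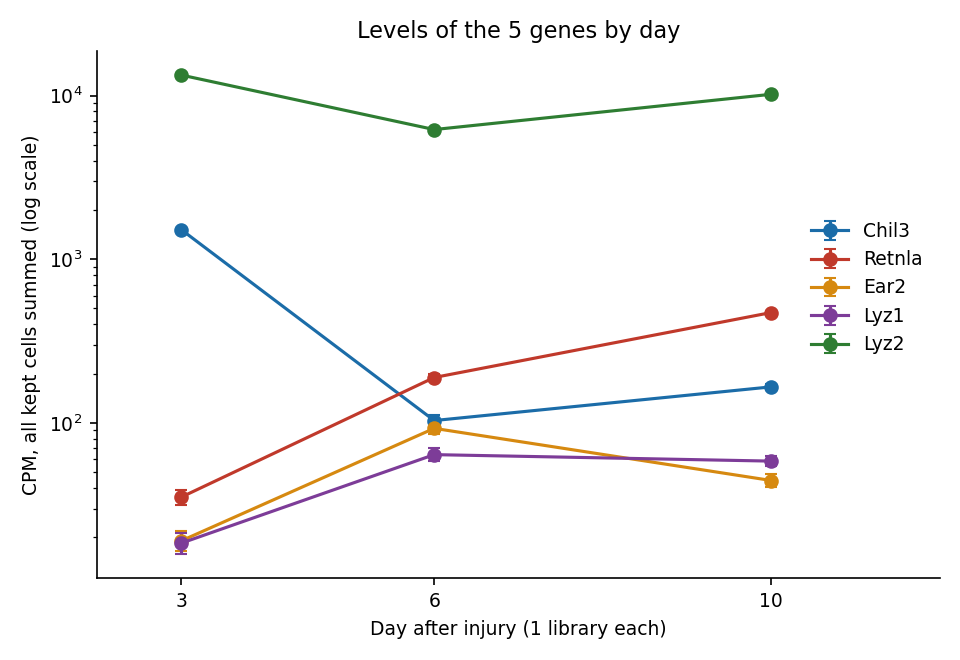
Level of each gene in CPM (log axis) against the day after injury, with 1 library a day; bars are exact Poisson 95% intervals and the lines only join points of the same gene. Chil3 is at 1513 CPM on day 3 and 103 CPM on day 6, Retnla is at 35.3 CPM on day 3 and 472 CPM on day 10, and Lyz2 is at 6195 CPM or more.

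The 3 genes that were higher on the later days sat in very few cells. Over the 3 libraries Retnla had 7443 UMIs in 108 of 2860 cells, and 4 cells held 50% of them. The 10 cells with the most Retnla held 73.7%. Among the 795 genes with 0.5 to 2 times that many UMIs the median gene was found in 1970 cells, and 1 gene was found in fewer cells than Retnla.

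A single cell could set the level of a library. On day 3 the top cell held 173 of 344 Retnla UMIs (50.3%) and the next 109, and 4 of the 11 cells with Retnla had 1 UMI. On day 6 the top 4 cells held 274, 263, 207 and 206 of 1376 UMIs. On day 10 they held 1828, 821, 589 and 556 of 5723. The 1828 Retnla UMIs made up 8.79% of all mRNA molecules counted in that cell.

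Lyz1 had 1353 UMIs in 231 cells, of which 8 cells held 50% and the top 10 held 57.4%. Most cells with Lyz1 had a single UMI (57 of 71 cells on day 3, 32 of 53 on day 6 and 71 of 107 on day 10). Ear2 was less uneven, with 1398 UMIs in 159 cells, 50% of them in 18 cells and 33.3% in the top 10. Of the genes with 0.5 to 2 times their UMIs, 16 of 3363 were in fewer cells than Lyz1 and 9 of 3316 in fewer cells than Ear2.

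Chil3 and Lyz2 were spread over many cells. Chil3 had 17529 UMIs in 873 cells, and 113 cells held 50%. Its spread narrowed with its level, from 92 cells for 50% of the UMIs on day 3 to 5 on day 6 and 17 on day 10. Lyz2 had 298333 UMIs in 2739 of 2860 cells, and 335 cells held 50%.

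**Figure D2:**
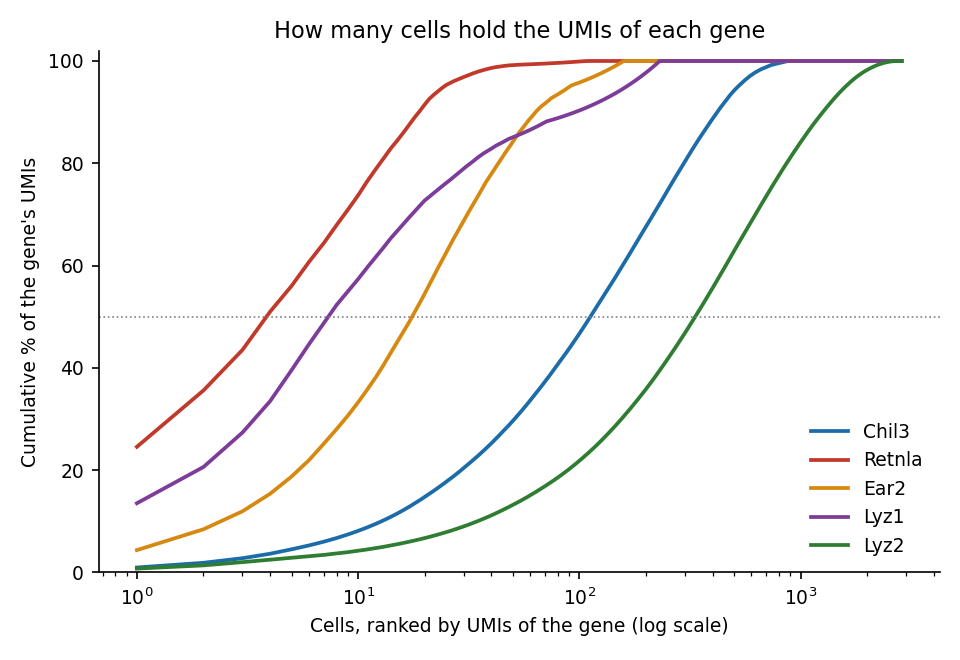
Cumulative percent of the UMIs of each gene (vertical axis) over kept cells ranked by their UMIs of that gene (horizontal axis, log scale), 3 libraries together; the dotted line marks 50%. The Retnla curve crosses it at 4 cells, Lyz1 at 8, Ear2 at 18, Chil3 at 113 and Lyz2 at 335.

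To compare shares of cells at equal depth, cells were thinned to 2000 UMIs, which left out 21, 47 and 90 shallower cells. Chil3 was then found in 57.5% (54.1 to 60.7%), 7.62% (5.55 to 10.2%) and 8.18% (6.73 to 9.82%) of cells on days 3, 6 and 10, against 67.4%, 16.6% and 12.3% without thinning. In dendritic cell-like cells, with higher median depths of 15768, 17725 and 13552 UMIs, the thinned shares of Chil3 were 1.504%, 0 of 133 cells (which allows up to 2.26%) and 0.529%. Chil3 was thus above that level on every day.

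Thinned shares of Lyz1 were 1.82%, 3.27% and 3.30% (7.89%, 8.86% and 7.86% unthinned), against 0 of 133, 0 of 133 and 0.529% of dendritic cell-like cells. The day 3 share was under the 2.26% that 0 of 133 allows. Thinned shares of Retnla were 0.569%, 2.72% and 2.83% (1.22%, 5.35% and 4.77% unthinned), against 0.752%, 0.752% and 0 in dendritic cell-like cells. The day 3 share was not above that of dendritic cell-like cells, which is 1 of 133 cells (0.019 to 4.12%). In monocyte/macrophage-like cells the thinned shares of Retnla were 0.270%, 0.765% and 1.53%. For Ear2 the shares of 1.48%, 5.44% and 2.52% (4.56%, 9.20% and 4.63% unthinned) were not above those of dendritic cell-like cells, at 1.504%, 6.02% and 2.65%. No share of cells expressing Ear2 is read from these values. Dendritic cell-like cells are among the kept cells and held 18.5% of all Ear2 UMIs, so they give no background level for it. Lyz2 was found in 92.3%, 83.7% and 92.0% of thinned cells (96.8%, 91.6% and 96.9% unthinned) and in 57.1%, 48.9% and 61.4% of dendritic cell-like cells.

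The cells were clustered without the 5 genes, and each gene was then placed on the 14 clusters. Cluster 11, of 62 cells (6, 24 and 32 by day), held 92.1% of the Retnla UMIs, 50.1% of Ear2 and 48.6% of Lyz1. Its leading genes Stmn1, Hist1h2ap, Top2a and Mki67 are genes of dividing cells, Fcrls is a scavenger-type receptor of macrophages, and its markers gave it no cell type name. It had 1 Chil3 UMI. Its median depth was 18804 UMIs, higher than that of every library, and the part of depth in its levels was not tested.

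Within cluster 11 Retnla stood at 1310 CPM on day 3, 2651 CPM on day 6 and 9959 CPM on day 10. Lyz1 stood at 183, 275 and 919 CPM. Both were higher on day 10 than on day 6 inside the cluster, Retnla by 3.76-fold (3.54 to 3.99) and Lyz1 by 3.34-fold (2.76 to 4.06). On day 10, 1 cell held 1828 of the 5311 Retnla UMIs of the cluster, and 1 cell held 183 of its 490 Lyz1 UMIs. The size of both ratios thus rests in part on single cells. On day 3, 1 cell held 173 of the 215 Retnla UMIs of the cluster. Ear2 was 146, 809 and 508 CPM there, 1.59-fold lower on day 10 than on day 6 (1.36 to 1.86). With 6 cells on day 3, no ratio to day 3 was formed.

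Retnla outside this cluster was close to 0 except in a few cells. Cluster 10, led by Cd163, C4b, Cbr2 and Gas6, genes of resident macrophages, had 478.8 CPM on day 10 (377 UMIs in 9 of 75 cells) and 9.79 CPM on day 6 (5 UMIs in 1 of 40 cells). Cluster 1 on day 3 had 110 UMIs in 2 cells, 109 of them in 1 cell. In the other 11 clusters Retnla was at most 11.7 CPM summed over the 3 days, and its highest value in 1 library was 62.7 CPM, in cluster 5 on day 3 (13 UMIs in 1 of 17 cells).

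Chil3 was highest in cluster 6, whose leading genes include Dmkn, Hp, Cd177 and Mgst1. Hp encodes haptoglobin, which binds free hemoglobin. Its Chil3 level was 3295 CPM on day 3 (151 cells), 2887 CPM on day 6 (8 cells) and 2076 CPM on day 10 (77 cells), 1.59-fold lower on day 10 than on day 3 (1.5004 to 1.68). That difference is smaller than the one over all cells. Cluster 6 held 42.0% of the Chil3 UMIs on day 3 and 75.3% on day 10.

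In cluster 1, led by the monocyte gene Ly6c2 with Irf7 and Slfn1, Chil3 was 1800 CPM on day 3 (323 cells) and 387 CPM on day 10 (38 cells), 4.65-fold lower (3.90 to 5.59). In cluster 4, led by the interferon-induced genes Rsad2 and Cxcl10, it was 1458 CPM on day 3 and 901 CPM on day 6, 1.62-fold lower (1.42 to 1.85). Summed over the 3 days, the other 11 clusters had at most 99.6 CPM of Chil3. On day 3 alone Chil3 was higher in the few cells of clusters 9, 5, 2 and 3 (14, 17, 4 and 17 cells), at 409, 390, 374 and 248 CPM. Lower levels within clusters and fewer cells in the Chil3-rich clusters 1, 4 and 6 (698 of 900 kept cells on day 3, 58 of 598 on day 6 and 121 of 1362 on day 10) came together. Clusters 1 and 4 were mostly of the day 3 library (323 of 385 and 224 of 256 cells), so cluster and library cannot be told apart there.

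Summed over the 3 days, Lyz2 was also highest in cluster 6, at 31023 CPM, and lowest in the dendritic cell-like clusters 0 (1429 CPM) and 12 (682 CPM). Outside cluster 11, Lyz1 was highest in cluster 3, led by Mmp12, Gpnmb and Ctsk, genes known from lipid-laden macrophages, with 104 CPM. There it was 187 CPM on day 6 and 22.7 CPM on day 10, 8.24-fold lower (5.64 to 12.5), while Lyz2 was 1.28-fold higher (1.26 to 1.31). Cluster 3 had 269 Lyz1 UMIs in 21 of 127 cells on day 6, with 96 in 1 cell. On day 10 it had 30 in 13 of 124 cells, so the Lyz1 ratio rests on few cells. In cluster 6 Lyz1 went the other way, from 15.9 CPM on day 3 to 95.9 CPM on day 10.

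Outside cluster 11 and summed over the 3 days, Ear2 was at 69.7 CPM in cluster 5 (led by Tmem119), 43.0 in cluster 6, 40.5 in cluster 3 and 39.2 in the dendritic cell-like cluster 0, and at 0 in clusters 7 and 8. The 143 Ear2 UMIs of cluster 5 were in 7 of 255 cells, with 48 in 1 cell of day 3 and 61 in 1 cell of day 10. Cluster 6 had 116 Ear2 UMIs in 44 cells, cluster 3 had 117 in 13 cells and cluster 0 had 259 in 35 cells. Cluster 0 held 17.7%, 19.9% and 17.1% of the Ear2 UMIs by day. Within it Ear2 had the same order of days as over all cells, at 16.9, 61.9 and 36.9 CPM.

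**Figure D3:**
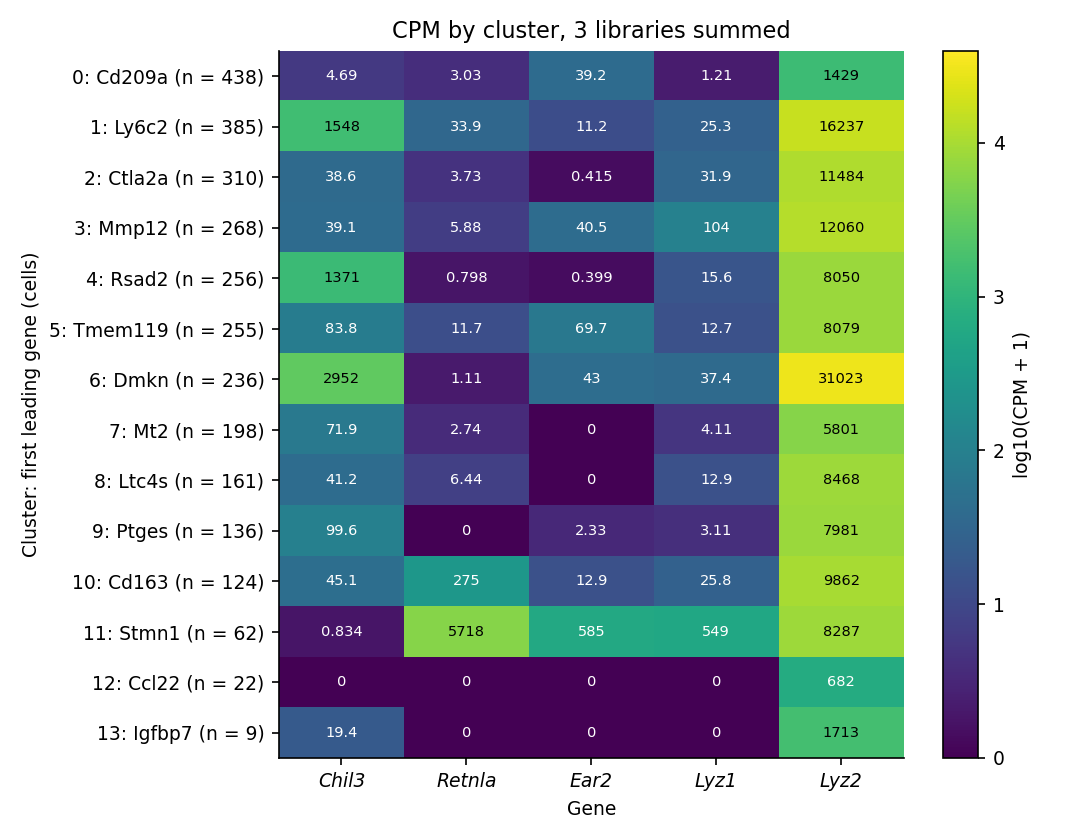
CPM of the 5 genes (columns) in each of the 14 clusters (rows, with the first leading gene and the number of cells), 3 libraries summed; colour is log10(CPM + 1). Retnla stands out in cluster 11 (5718 CPM), Chil3 in clusters 6, 1 and 4 (2952, 1548 and 1371 CPM), and Lyz2 is found in every cluster.

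Restricting the sums to the monocyte/macrophage-like clusters, which leaves out cluster 11, gave other values for several of these differences. Chil3 remained far lower on day 10, at 224 CPM against 1950 CPM on day 3. Retnla was 16.9, 7.87 and 45.1 CPM by day, so its log2 ratio was -1.11 for day 6 against day 3, opposite in direction to that of all cells, and 1.41 for day 10 against day 3. Of the 128 Retnla UMIs of this class on day 3, 109 were in 1 cell.

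In the same clusters Ear2 was 17.1, 29.9 and 19.7 CPM and Lyz1 19.7, 73.0 and 23.8 CPM. Their log2 ratios for day 10 against day 3 were 0.20 and 0.27, both under 1.5-fold. Some single clusters of this class differed by more, since on day 10 Ear2 was 3.07-fold above day 3 in cluster 6 (2.09 to 4.53) and 35.2-fold in cluster 1 (12.8 to 119.9, from 5 UMIs on day 3 and 20 on day 10). In cluster 1 the 5 UMIs were in 5 of 323 cells and the 20 in 2 of 38 cells, so that ratio rests on 2 cells. Lyz1 was 6.01-fold above day 3 in cluster 6 (3.87 to 9.55) and 0.668 times its day 3 level in cluster 1, with an interval (0.238 to 1.52) that includes no difference. In cluster 6 the 30 Lyz1 UMIs of day 3 were in 26 of 151 cells and the 70 of day 10 in 16 of 77. The share of its cells with Lyz1 thus differed by less than the level. With clusters named from leading genes at any share of their cells, which leaves clusters 2 and 6 without a name and out of the sums, the log2 ratio of Lyz1 for day 10 against day 3 was -0.42 and that of Chil3 for day 10 against day 6 was -0.80, both opposite to all cells.

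Cells with at least 3 UMIs of a gene and at least 1000 UMIs of it per 1000000 UMIs of the cell were then looked at, and are called Retnla-high, Ear2-high and Lyz1-high here. There were 3, 9 and 20 Retnla-high cells on days 3, 6 and 10 (0.333%, 1.51% and 1.47% of kept cells), and these 32 cells held 97.2% of the Retnla UMIs. Their number per kept cell was about the same on days 6 and 10. The Retnla level in them was 6536 CPM on day 3, 10800 CPM on day 6 and 16709 CPM on day 10. On day 10, 1 cell held 1828 of the 5636 Retnla UMIs in these cells. The median Retnla-high cell had 109, 114 and 116.5 Retnla UMIs by day. No higher level per cell on day 10 than on day 6 is therefore read from the sums. All other kept cells together were at 7.30 CPM.

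There were 2, 12 and 13 Ear2-high cells, which held 59.4% of the Ear2 UMIs, and 4, 6 and 12 Lyz1-high cells, which held 71.7% of the Lyz1 UMIs. Cluster 11 held 27 of the 32 Retnla-high cells, 13 of the 27 Ear2-high cells and 12 of the 22 Lyz1-high cells. The other Retnla-high cells were 4 in cluster 10 and 1 in cluster 1. The other Ear2-high cells included 6 in cluster 0, and the other Lyz1-high cells included 4 in cluster 3, all of day 6.

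The sets overlapped in part. Retnla-high and Lyz1-high shared 11 cells, which is 34.4% of the Retnla-high and 50% of the Lyz1-high cells. Retnla-high and Ear2-high shared 6 cells, 18.8% and 22.2% of each. Ear2-high and Lyz1-high shared 2, and 1 cell was in all 3 sets. Of the 63 cells in any set, 35 were in cluster 11.

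Cluster 11 was divided by the level that defines Retnla-high cells, which fixes the Retnla contrast. Its 27 Retnla-high cells had 14237 CPM of Retnla, 1358 CPM of Lyz1 (in 18 cells), 703 CPM of Ear2 and 3694 CPM of the fibronectin gene Fn1. Its other 35 cells had 133, 18.0, 507 and 1026 CPM of these genes. Lyz1 thus went with Retnla inside the cluster, whereas Ear2 differed by less. The proliferation gene Mki67 was found in 7 of the 27 Retnla-high cells (202 CPM) and in 19 of the other 35 (387 CPM). Top2a was found in 8 and 18 cells (143 and 326 CPM) and Stmn1 in 11 and 23 cells (423 and 780 CPM).

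Besides Lyz1 and Ear2, the genes that stood out most in Retnla-high cells were Upb1 (216 CPM against 3.42 in all other kept cells), Cd2 (200.4 against 4.75), Ube2c, Fcrls (1073 against 41.6), Hist1h2ae and Hist1h2ap. Of the 32 cells, 27 had Fcrls, 23 had Cd2 and 17 had Upb1. Ube2c, Hist1h2ae and Hist1h2ap were in 9, 8 and 9 of them, so most Retnla-high cells had none of each. Upb1 encodes an enzyme of pyrimidine breakdown and Cd2 an adhesion receptor best known from lymphocytes. In Lyz1-high cells Retnla led (18030 against 111 CPM), followed by Cd2, Fcrls, Ear2, Ccl24, Cd81, Lpl and Sept11. In Ear2-high cells Retnla and Lyz1 led, with Fcrls, the dendritic cell factor Batf3, the lectins Mgl2 and Clec4b1, Unc119 and Lpl. Fcrls, Retnla, Ear2 and Lyz1 thus recurred across the sets.

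Markers of other cell types were checked in these cells. Of 25 monocyte and macrophage markers, 23, 24 and 25 were found in Retnla-high, Ear2-high and Lyz1-high cells, with summed levels of 10375, 10779 and 20931 CPM, against 22690, 22671 and 22490 CPM in all other kept cells. Of 7 eosinophil markers the defining genes Ccr3, Epx, Prg2 and Il5ra were at 0 in all 3 sets, as was Ear6, and the list summed to 3.97, 4.21 and 4.26 CPM, against 1.60 to 1.63 CPM in all other kept cells. The neutrophil list summed to 11.9, 31.6 and 107 CPM, against 181 to 183 CPM elsewhere. Of its 10 markers 2, 3 and 5 were found, and Ly6g, Cxcr2, Retnlg and Ngp were at 0 in all 3 sets. Of the dendritic cell list 7, 7 and 8 of 14 were found, summing to 810, 1656 and 426 CPM against 839 to 855 CPM elsewhere. Ccr7, Ccl22, Fscn1, Clec9a, Cacnb3 and Il4i1 were at 0 in all 3 sets. In Ear2-high cells the sum of the list stood above other cells, with Batf3 at 223 against 31.6 CPM and Mgl2 at 727 against 108 CPM. Batf3 and Mgl2 made up nearly all of that difference, so the sum does not show the rest of the list to be higher. Of 11 resident dermal macrophage markers 11, 6 and 9 were found, summing to 2524, 1698 and 2995 CPM, against 1930, 1944 and 1931 CPM elsewhere. Scrublet called 1 of the Retnla-high cells a doublet and none of the others.

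The lysozyme pair was compared cell by cell. In the 22 Lyz1-high cells there were 244 Lyz1 UMIs per 1000 Lyz2 UMIs (229 to 260). In the other 2838 kept cells there were 1.30 (1.17 to 1.44), with 0.842, 2.90 and 1.22 on days 3, 6 and 10. By cluster the figure was 66.2 in cluster 11, 8.61 in cluster 3 and at most 2.78 elsewhere. How many Lyz1 UMIs of the Lyz1-poor cells come from Lyz2 molecules, given the near-identical ends of the transcripts, was not tested. Lyz1 exceeded Lyz2 in 4 cells.

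**Figure D4:**
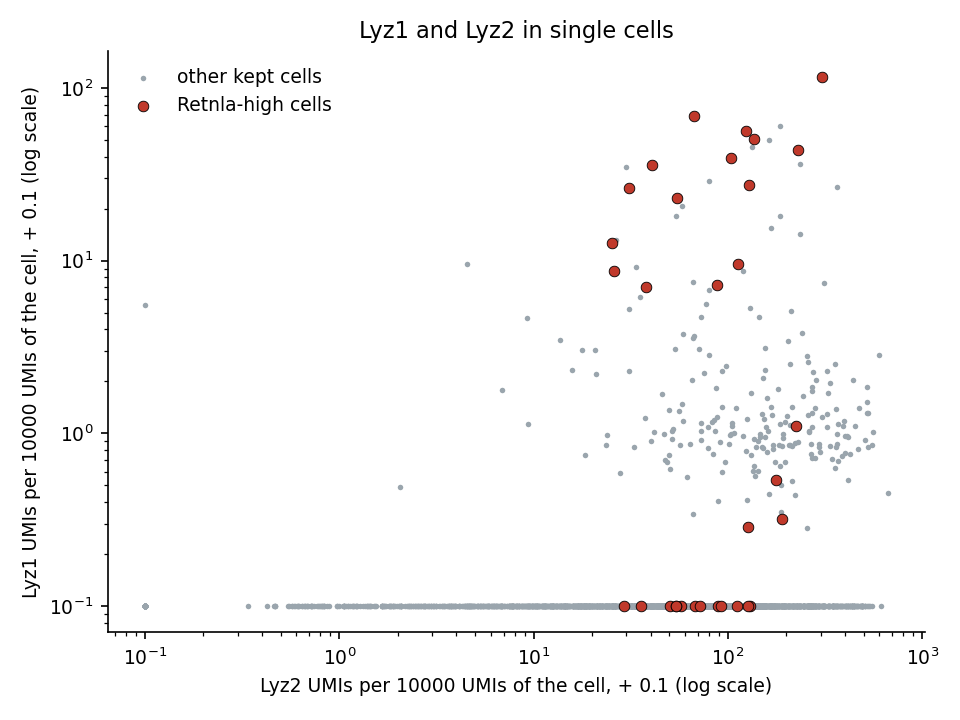
Lyz1 against Lyz2 in single kept cells, as UMIs per 10000 UMIs of the cell plus 0.1 (both axes log), with the 32 Retnla-high cells in red; cells with no Lyz1 UMI lie on the lower edge. All 32 Retnla-high cells have Lyz2 UMIs and 19 have Lyz1, of which 11 are Lyz1-high.

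Likeness was measured over 25 sums of a cluster in a library (at least 20 cells), as Pearson correlations of log2(CPM + 10) with 5267 genes. These sums share libraries and depth, so the correlations are descriptions. The genes most like Chil3 were Plcb1 (r = 0.87), Hp (0.86), Ifi204, Slfn1, Klra2 and Ube2d3 (0.83). Those most like Retnla were Hist1h2ap (0.91), Stmn1 (0.87), Sept11, Anp32b, Rbbp4 and Hmgb1 (0.82). For Ear2 they were Cenpa (0.83), Tmpo, Batf3, Ahcyl2, Dek and Mpp6 (0.81), for Lyz1 Socs6 (0.81), Snrnp25, Hist1h2ap, Bub3, Anapc11 and Hmgn2 (0.70), and for Lyz2 Cib1 (0.84), Sqor, Ethe1, Aldh3b1, Fcgr3 and Ctps2 (0.74).

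The genes named depended on the measure. Spearman correlations shared 0 of the 6 genes of Retnla and 0 of those of Lyz1. They shared 2 for Chil3 (Hp and Ifi204), and 1 each for Ear2 (Cenpa) and Lyz2 (Cib1). Hist1h2ap and Stmn1 had Spearman values with Retnla of 0.52 and 0.32. Between the 5 genes the Pearson values were 0.76 for Retnla and Lyz1, 0.69 for Ear2 and Lyz1, 0.67 for Retnla and Ear2, 0.56 for Chil3 and Lyz2, and 0.46 for Lyz1 and Lyz2. The Spearman values of these pairs were 0.39, 0.35, 0.28, 0.45 and 0.64, so the order of the pairs depended on the measure too. Cluster 11 entered the sums on days 6 and 10 only, and its part in the Pearson values was not tested. Chil3 and Retnla gave a Pearson value of -0.34 and a Spearman value of -0.31.

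Close relatives of the 5 genes were nearly absent from the counts. Of 6 chitinase-like relatives of Chil3, Chil5 had 6 UMIs, Chit1 had 1 and Chil1, Chil4, Chil6 and Chia1 had none. Of the resistin-like genes Retn had 9, 2 and 8 UMIs by day, Retnlg 4, 12 and 2, and Retnlb none. Lyzl4 had 11 UMIs in all, Lyzl6 had 1, and Lyzl1, Lalba and Spaca3 had none. Ear1 had 2 UMIs and Ear6, Ear10 and Ear14 had none, so the family signal was that of Ear2.

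Of the 11 listed ribonuclease relatives 5 had enough UMIs, and 1 was at least 1.5-fold higher and none lower on day 10 than on day 3, where 24.6% of all measured genes were higher and 8.94% lower. Rnase4, a ribonuclease of many tissues, had 457, 1004 and 962 UMIs by day, and Rnase6, an antimicrobial one of monocytes, 494, 355 and 669. The median log2 ratio of the 5 was 0.13, against 0.17 for all measured genes.

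The interleukin-4 and interleukin-13 pathway gave no uniform picture. Il4 had 3 UMIs in 1 cell of day 3 and Il13 had 1, and neither was found later. The receptor chains and Stat6 differed little, with Il4ra at 151, 144 and 178 CPM, Il13ra1 at 68.6, 76.3 and 62.8 CPM and Stat6 at 62.1, 55.6 and 57.6 CPM. Other signalling genes of the list differed more. Socs1, a signalling inhibitor, was 1.91-fold higher on day 10 than on day 3 (1.48 to 2.47). On day 6 the transcription factor gene Irf4 was 2.09-fold (1.63 to 2.69) and the inhibitor gene Socs2 1.83-fold (1.31 to 2.58) above day 3. Cebpb, another transcription factor gene of the list, was lower on both later days, at 2901, 1419 and 1386 CPM by day. Of 34 measured genes of the list, 10 were at least 1.5-fold higher and 5 lower on day 10 than on day 3 (median log2 ratio -0.03), 13 and 3 on day 6 against day 3 (0.33), and 1 and 12 on day 10 against day 6 (-0.28). Over all measured genes 24.6% were higher and 8.94% lower in the first comparison, 28.6% and 7.79% in the second, and 5.87% and 10.3% in the third.

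The largest ratios for day 10 over day 3 in the list were those of Slc7a2, an arginine transporter (10.4-fold, 7.01 to 15.98), Fcrls (9.58-fold, 7.63 to 12.2) and the chemokine Ccl8 (9.52-fold, 7.83 to 11.7). The smallest were those of the chemokines Ccl17 (7.90-fold lower, 5.36 to 12.04) and Ccl24 (7.38-fold lower, 6.15 to 8.90) and of the signalling inhibitor Cish (3.90-fold lower, 3.01 to 5.10). Genes that interleukin-4 is known to raise thus lay at both ends, as Chil3 and Retnla did.

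The filter on mitochondrial UMIs mattered for these genes. Among cells just inside the limit (8 to 10%), Retnla was 314, 419 and 614 CPM on days 3, 6 and 10, and among barcodes just outside (10 to 12%) it was 5.57, 11.1 and 317 CPM. The first value is that of 1 cell with 109 UMIs, and on days 6 and 10 1 cell held 78.6% and 74.3% of the UMIs inside the limit. Chil3 was 1398, 17.3 and 50.6 CPM inside and 1092, 126 and 30.7 CPM outside. For Lyz2 the values were 9882, 5085 and 5086 CPM inside and 5642, 6217 and 4829 CPM outside.

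Over all barcodes left out, Retnla stood at 207, 1385 and 1330 CPM by day, higher than in kept cells on each day. Lyz1 stood at 76.3, 132 and 188 CPM, also higher on each day. Chil3 (860, 54.2 and 58.7 CPM) and Lyz2 (4345, 4820 and 4153 CPM) were lower than in kept cells on each day. Ear2 was 18.0, 89.1 and 77.0 CPM, above kept cells on day 10 and with overlapping intervals on days 3 and 6. Without any filter Retnla was 1.31-fold higher on day 10 than on day 6, in place of 2.49-fold.

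**Figure D5:**
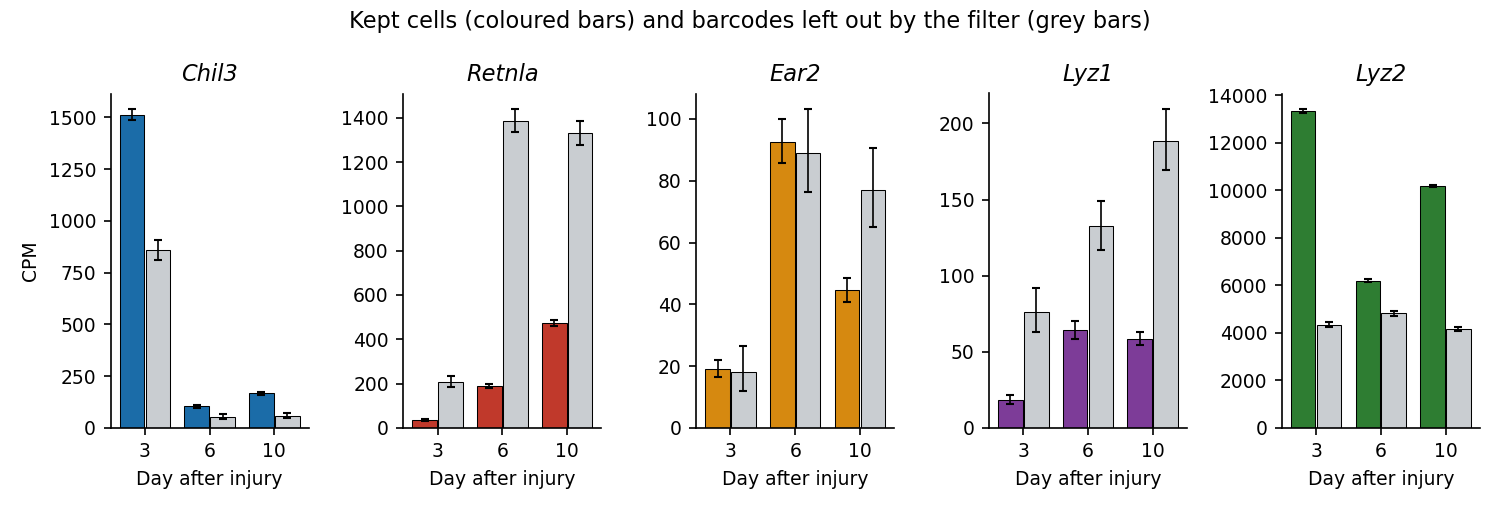
CPM of each gene in kept cells (coloured bars) and in all barcodes left out by the filter (grey bars) by day after injury, with exact Poisson 95% intervals and a separate axis for each gene. Grey bars are taller for Retnla and Lyz1 on every day (1330 against 472 CPM for Retnla on day 10) and shorter for Chil3 and Lyz2.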

How the data were processed

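Cells from wounds were profiled on the 10x Chromium platform, with 1 library per day from the pooled cells of 2 mice. The deposited values are raw UMI counts per gene and barcode, made by the authors with Cell Ranger 3.0.2 against mm10, per the submitters' processing notes. The annotation release and the gates of the isolation are not given in the sources used here. The 5 genes, the gene lists and the markers were chosen with earlier results of these data known. Barcodes with at least 200 genes and under 10% mitochondrial UMIs were kept, and their counts were summed per library. Intervals of 95% are exact: conditional binomial for ratios and Clopper-Pearson for shares. Measured genes had 20 or more UMIs in the libraries compared, and counts below 3 were set to 3. No test was run, as each day has 1 sample.

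Cells were clustered with scanpy 1.11.5 on 1995 variable genes that excluded the 5 genes (30 components, 15 neighbours, Leiden resolution 0.8, leidenalg 0.10.2). Doublets called by Scrublet (23 cells) were kept. A cluster was monocyte/macrophage-like with at least 5 of its markers at 50 CPM and at or above their level elsewhere. Another class needed at least 3 markers at 50 CPM, in 25% of cells and 4-fold above other cells, and clusters led by markers of another class stayed unnamed. Leading genes had to be in 25% of a cluster's cells, a condition set after a first run without it had left clusters 2 and 6 unnamed, because hemoglobin genes of few cells and S100a9 led them. Genes were named by likeness (the 6 highest Pearson correlations), by the 8 largest ratios at 200 CPM or more in high-holding cells, and, in lists of over 12 genes, as the 3 largest and 3 smallest ratios. Other genes and clusters singled out were chosen after their values were seen. Coordinates and transcripts came from GENCODE vM21 and promoters from RefSeq, which matched 5 of 5 genes. The printed promoter window ends 61 bases before the start, so that it holds no transcribed base. Alternatives were TMM factors (edgeR 4.0.16), median-of-ratios factors, other filters, weights and populations. Intervals were tested on simulated data.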

Additional observations from a re-analysis of the deposited data

Results flagged for a closer look

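The comparisons between days used kept cells, so the 2017 barcodes left out by the filter, with 5309167 UMIs, lay outside them, and all 5 genes were found there above the 3 UMIs that a count of 0 allows. With the 3 libraries together, Retnla stood at 1046 CPM in those barcodes (5554 UMIs in 239 barcodes) against 255 CPM in kept cells, and 42.7% of all its UMIs were left out. Lyz1 stood at 137 CPM against 46.4 CPM, with 34.9% of its UMIs left out. Ear2 stood at 65.5 CPM against 48.0 CPM, with 19.9% left out. Chil3 (274 CPM against 602) and Lyz2 (4458 CPM against 10239) were lower there, with 7.67% and 7.35% of their UMIs left out. At the level that defines Retnla-high cells, 14, 56 and 98 barcodes of days 3, 6 and 10 were left out, against 3, 9 and 20 kept. The left-out barcodes were shallower, with medians of 2349.5, 2935.5 and 1970 UMIs, and the part of depth and of high mitochondrial UMIs in these levels was not tested.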

How the results depend on the processing

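No paired analysis was possible because each day has 1 library, no replicate could be left out for the same reason, and nothing here measures the spread between mice. Depth limits Retnla, Ear2 and Lyz1 on day 3, with 344, 186 and 180 UMIs. Each log2 ratio was recomputed under 12 other settings. The ratio of Chil3 to day 3 was negative and that of Ear2 positive under all of them on both later days, as was that of Retnla on day 10 (1.40 to 7.24), and Lyz2 kept its direction in every comparison. For Ear2 on day 10, however, 2 settings had intervals that include no difference. These were the monocyte/macrophage-like clusters alone (0.20, -0.13 to 0.54) and leading genes at any share of cells (0.31, -0.12 to 0.75). The 88 values that lay outside the counting interval of the value reported, and the 4 that reversed, follow as log2 ratios, and the cause was not tested. Without the top 10 cells Retnla had 1 UMI left on day 3, which was set to 3. With no cell filter, day 10 against day 3 gave Retnla 3.35 and Lyz2 -0.38, day 6 against day 3 gave Retnla 2.97 and Lyz2 -1.05, and day 10 against day 6 gave Retnla 0.39 and Lyz2 0.67. With a mitochondrial limit of 20%, day 10 against day 3 gave Lyz2 -0.38, day 6 against day 3 gave Lyz2 -1.05, and day 10 against day 6 gave Retnla 1.19, Lyz1 0.10 and Lyz2 0.68. With Scrublet calls left out, day 10 against day 6 gave Retnla 1.43. With monocyte/macrophage-like clusters alone, day 10 against day 3 gave Retnla 1.41, Ear2 0.20 and Lyz1 0.27, day 6 against day 3 gave Chil3 -3.54, Retnla -1.11, Ear2 0.81 and Lyz2 -0.94, and day 10 against day 6 gave Chil3 0.42, Retnla 2.52, Ear2 -0.60, Lyz1 -1.62 and Lyz2 0.55. With cluster 11 added to them, day 6 against day 3 gave Chil3 -3.66, Retnla 2.63 and Lyz2 -0.95, and day 10 against day 6 gave Chil3 0.49, Retnla 1.13, Lyz1 -0.33 and Lyz2 0.56. With leading genes at any share of cells, day 10 against day 3 gave Chil3 -4.41, Retnla 1.40, Ear2 0.31, Lyz1 -0.42 and Lyz2 -0.26, day 6 against day 3 gave Chil3 -3.61, Retnla -1.35, Ear2 1.40 and Lyz2 -0.61, and day 10 against day 6 gave Chil3 -0.80, Retnla 2.75, Lyz1 -2.34 and Lyz2 0.35. With TMM factors, day 10 against day 3 gave Chil3 -3.34 and Lyz2 -0.54, day 6 against day 3 gave Chil3 -4.11, Retnla 2.19 and Lyz2 -1.34, and day 10 against day 6 gave Lyz2 0.80. With median-of-ratios factors, day 10 against day 3 gave Chil3 -3.37, Retnla 3.56 and Lyz2 -0.57, day 6 against day 3 gave Chil3 -4.14, Retnla 2.16, Ear2 2.02, Lyz1 1.53 and Lyz2 -1.37, and day 10 against day 6 gave Lyz2 0.79. With equal weight for every cell, day 10 against day 3 gave Retnla 3.41 and Lyz2 -0.44, day 6 against day 3 gave Chil3 -3.68 and Lyz2 -1.18, and day 10 against day 6 gave Chil3 0.46, Retnla 0.83 and Lyz2 0.74. With the top cell of each library left out, day 10 against day 3 gave Chil3 -3.26, Retnla 4.19, Ear2 1.48 and Lyz2 -0.40, day 6 against day 3 gave Chil3 -4.10, Retnla 3.11, Ear2 2.58 and Lyz2 -1.15, and day 10 against day 6 gave Chil3 0.83, Retnla 1.08 and Lyz2 0.75. With the top 10 cells of each library left out, day 10 against day 3 gave Chil3 -3.72, Retnla 7.24, Ear2 1.79, Lyz1 0.98 and Lyz2 -0.41, day 6 against day 3 gave Chil3 -5.23, Retnla 4.95, Ear2 3.09, Lyz1 0.77 and Lyz2 -1.30, and day 10 against day 6 gave Chil3 1.51, Retnla 2.28, Ear2 -1.30, Lyz1 0.21 and Lyz2 0.89. The number of genes at least 1.5-fold apart was 2 for day 10 against day 3 in the monocyte/macrophage-like clusters under either naming, and 2 for day 10 against day 6 with cluster 11 added. The share of UMIs in the top 10 cells with no filter was 45.6% for Retnla, 26.6% for Ear2 and 39.2% for Lyz1, and with the 20% limit 60.4%, 29.9% and 48.4%. In the monocyte/macrophage-like clusters it was 90.7%, 67.8% and 54.0%, and with leading genes at any share of cells 92.6%, 85.7% and 65.4%. It was 74.9% for Retnla without Scrublet calls and 40.4% for Ear2 with cluster 11 added. Ear2-high cells numbered 47 at 500 UMIs per 1000000 and 9 at 2000. At a resolution of 0.4, 81.6% of Retnla UMIs lay in 1 cluster, and which one is not given here. Cluster 11 depended on the resolution. At 0.4 the unnamed cluster led by Hist1h2ap and Ube2c had 23 cells (3, 8 and 12 by day), against 62 in cluster 11. The dendritic cell-like cluster led by Cd209a had 478 cells, against 438 in cluster 0. For day 10 against day 6, 9.89% of all genes were past 1.5-fold with at least 100 UMIs and 36.2% with at least 1, against 16.2% as reported. The settings with cluster 11 added and with leading genes at any share were chosen after seeing the data.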

Other observations

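Other secreted antimicrobial genes of myeloid cells differed in both directions. Of 14 with enough UMIs for day 10 against day 3, 1 was at least 1.5-fold higher, 7 were lower and 6 lay within 1.5-fold, where 24.6% of all measured genes were higher and 8.94% lower. Their median log2 ratio was -0.45, against 0.17 for all measured genes. Lcn2, the iron-binding lipocalin, was 17.4-fold lower on day 10 (11.3 to 28.2), the protease inhibitor Slpi 4.70-fold lower (4.48 to 4.94) and haptoglobin, Hp, 3.48-fold lower (3.29 to 3.68). Hp was also among the genes most like Chil3 over clusters. Saa3, an acute-phase protein, was 3.46-fold higher (3.19 to 3.76), while the pore-forming Mpeg1 (1.40-fold) and the calprotectin subunit S100a9 (1.30-fold) were under 1.5-fold in this comparison. On day 6 Mpeg1 was 1.76-fold (1.68 to 1.85) and S100a9 4.87-fold (4.04 to 5.89) above day 3.

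Within clusters the differences were of unequal size. From day 6 to day 10 Lyz2 was 2.005-fold higher in cluster 5 (1.92 to 2.10), 2.70-fold in cluster 9 (2.57 to 2.84) and 2.35-fold in cluster 8 (2.10 to 2.63), against 1.64-fold over all cells. It was 1.83-fold higher in cluster 1 (1.75 to 1.91), and below the ratio of all cells in cluster 11 (1.53-fold), cluster 2 (1.36), cluster 0 (1.298), cluster 3 (1.28) and cluster 10 (1.09). Chil3 in cluster 2 was 67.6 CPM on day 6 and 10.1 CPM on day 10, 6.70-fold lower (3.76 to 12.6), where over all cells it was 1.61-fold higher on day 10. In cluster 5 Chil3 was 2.78-fold higher on day 10 (1.47 to 5.79).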
